A study of Mus musculus with 24 samples.

Results

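Mouse splenic B cells that had been activated in vitro for 12 h were compared with B cells activated in vitro for 4 h. The comparison took 6 of the 24 libraries of the series, 3 titled 12 h and 3 titled 4 h in vitro activated B cells, and covered the 11885 of 23420 deposited genes that reached 0 log2 (1 CPM, a read count scaled to the library's total) in at least 3 of the 24 libraries. Both groups were spleen cells of Balb/c mice; no label gives a genotype, age, sex or animal, and none names the stimulus or says whether libraries came from separate cultures, so p-values measure the spread between these libraries, which may be technical. Per the labels, cells were bead purified, stained and sorted by flow cytometry before poly(A) RNA libraries were made. Libraries of naive cells and of cells activated in vitro for 24 h, 3 each, are given beside the 2 groups as values. The question was what changes between the early and the middle part of the first day of activation.

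A resting B cell that receives an activating signal first switches on immediate-early transcription factors, feedback inhibitors and surface activation antigens, many of whose messages are short-lived. It then grows in size, building ribosomes, mitochondria and metabolic enzymes, and later passes from G1 into S phase when E2F transcription factors are released from the retinoblastoma proteins and the replication genes are transcribed. Antigen presentation, homing receptors and cytokine production are regulated over the same hours.

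The cells carried the RNA of B lineage cells at both times. All 9 B-cell identity markers were measured; 7 rose from 4 h to 12 h and 2 fell, and their summed level was 3280 to 3490 CPM per library at 4 h and 4240 to 4420 CPM at 12 h. In naive cells this sum was higher than at both times, 7950 to 8510 CPM per library. Ms4a1, which encodes CD20, rose by 0.40 ± 0.11 log2, while the lineage factor Ebf1 fell by 1.25 ± 0.085 log2. Cd79a, a signalling chain of the antigen receptor, fell by 0.18 ± 0.063 log2 (adjusted p = 0.0171), a call lost without 4 h replicate 3 (adjusted p = 0.0947) or without 12 h replicate 3 (adjusted p = 0.0601). In bulk libraries, fewer cells of a type and less RNA per cell cannot be told apart.

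Between 4 h and 12 h, 61.9% of the genes tested were called changed by limma at an adjusted p under 0.05: 34.6% (4114 genes) rose and 27.2% (3237 genes) fell. With a difference of at least 2-fold also required, 5.28% (627 genes) were higher at 12 h and 6.86% (815 genes) lower. Among genes with at least 10 CPM in the higher group, 200 were at least 2-fold higher and 419 at least 2-fold lower. The values of the 3 libraries of one group lay entirely above those of the other for 74.3% of the genes, so a lack of overlap is the common case here. The median difference over all genes was 0.05 log2 and the median absolute difference 0.38 log2, against a median SE of 0.10 log2. The deposited libraries share nearly the same distribution, so a small median difference is largely set by the processing. Rises and falls are relative to the other genes, and a change in total RNA per cell cannot be seen. The SE is estimated over all 24 libraries, so it can exceed the spread of the 6 compared. Counts for gene lists are read against these shares.

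**Figure D1:**
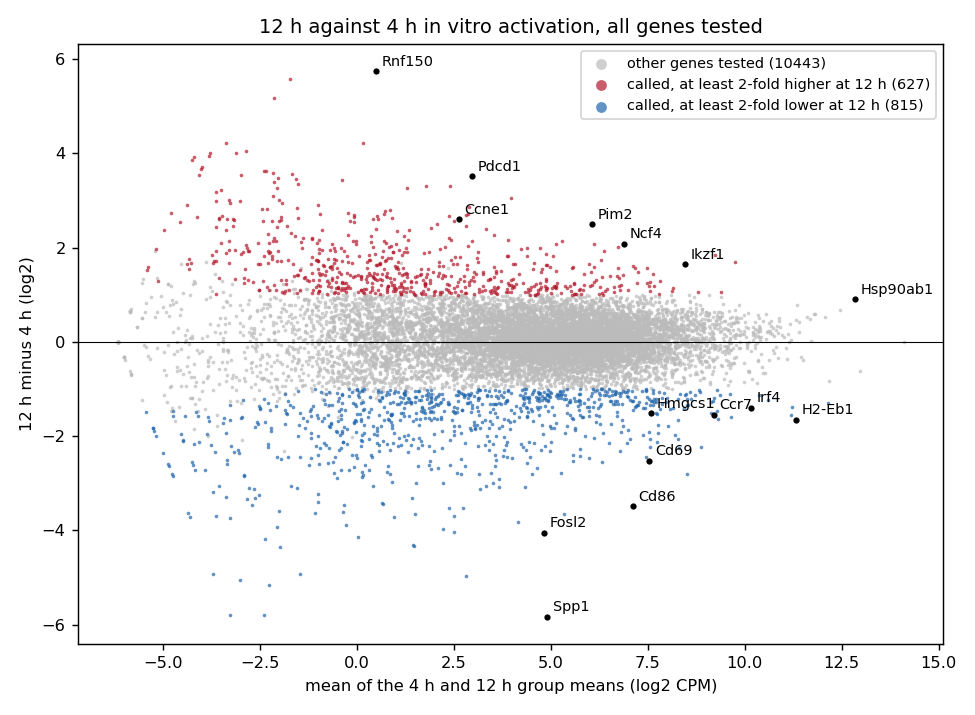
Difference between 12 h and 4 h (log2, vertical axis) against the mean level of the 2 groups (log2 CPM, horizontal axis) for the 11885 genes tested; red points were called and at least 2-fold higher at 12 h (627), blue points called and at least 2-fold lower (815), grey points the rest, black points named genes. Among the well-expressed named genes, Cd86, Fosl2 and Spp1 lie far below the zero line and Pim2 and Ncf4 far above it.

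The genes that fell most included surface activation antigens. Cd86, the costimulatory ligand of CD28 (mm10, chr16:36603869-36666081, minus strand), stood at 8.96, 8.85 and 8.77 log2 CPM in the 4 h libraries and 5.46, 5.36 and 5.29 log2 CPM in the 12 h libraries. It fell by 3.49 ± 0.074 log2 (SE, n = 3 and 3), or 11.2-fold, adjusted p = 7.4e-20, to below its naive mean of 6.19 log2 CPM. The 2 groups were separated by more than 3 log2 units and each was tight. Cd69, an early activation antigen that retains lymphocytes in tissue, stood at 8.87, 8.72 and 8.81 log2 CPM in the 4 h libraries and 6.21, 6.23 and 6.39 log2 CPM in the 12 h libraries and fell by 2.52 ± 0.22 log2 (SE, n = 3 and 3), or 5.75-fold, adjusted p = 7.6e-09. Cd83, a stabiliser of surface MHC class II, fell by 1.14 ± 0.075 log2, Cd5, a dampener of antigen receptor signalling, by 2.99 ± 0.24 log2, and Cd274, which encodes the ligand PD-L1, by 1.43 ± 0.22 log2. Of the 26 costimulation and activation genes tested, 11 fell (7 of them at least 2-fold) and 10 rose (2 at least 2-fold), with a median difference of -0.04 log2, close to that of all genes.

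Other surface molecules of the same list rose. Pdcd1, which encodes the inhibitory receptor PD-1 (chr1:94038305-94052553, minus strand), stood at 1.45, 1.4 and 0.78 log2 CPM in the 4 h libraries and 4.81, 4.86 and 4.49 log2 CPM in the 12 h libraries. It rose by 3.51 ± 0.24 log2 (SE, n = 3 and 3), or 11.4-fold, adjusted p = 2.07e-11; its mean was -1.14 log2 CPM in naive cells and 6.74 log2 CPM at 24 h. Lag3, an inhibitory receptor that binds MHC class II and was outside the list, stood at 0.52, -0.15 and 0.01 log2 CPM in the 4 h libraries and 3.66, 3.32 and 3.35 log2 CPM in the 12 h libraries, and rose by 3.32 ± 0.33 log2 (SE, n = 3 and 3), or 9.97-fold, adjusted p = 1.35e-08. As group values these were 1.11 and 10.9 CPM. Havcr1 (TIM-1) rose by 0.84 ± 0.092 log2 and Cd48, a SLAM family adhesion molecule, by 0.72 ± 0.057 log2.

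Genes of B-cell receptor signalling moved in both directions. Of 31 receptor and coreceptor genes, 16 rose and 10 fell, with a median of 0.14 log2. Blnk, an adaptor, rose by 1.17 ± 0.046 log2 and the phosphatase gene Ptpn6 (SHP-1) by 1.0 ± 0.070 log2. The largest falls were in Cr2, the complement receptor CD21, at 8.75, 8.62 and 8.66 log2 CPM in the 4 h libraries and 6.48, 6.34 and 6.5 log2 CPM in the 12 h libraries, and in Lilrb4, an inhibitory receptor, at 6.02, 6.22 and 5.96 log2 CPM in the 4 h libraries and 2.14, 2.4 and 2.16 log2 CPM in the 12 h libraries. Cr2 fell by 2.24 ± 0.13 log2 and Lilrb4 by 3.83 ± 0.32 log2. Gp49a, a near-identical neighbour of Lilrb4, fell by 4.03 ± 0.33 log2; counting may split reads between the pair, so each value is uncertain. Inpp5d (SHIP-1), a phosphatase that opposes PI3K, fell by 1.11 ± 0.058 log2 and Cd72, an inhibitory coreceptor, by 1.07 ± 0.082 log2.

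**Figure D2:**
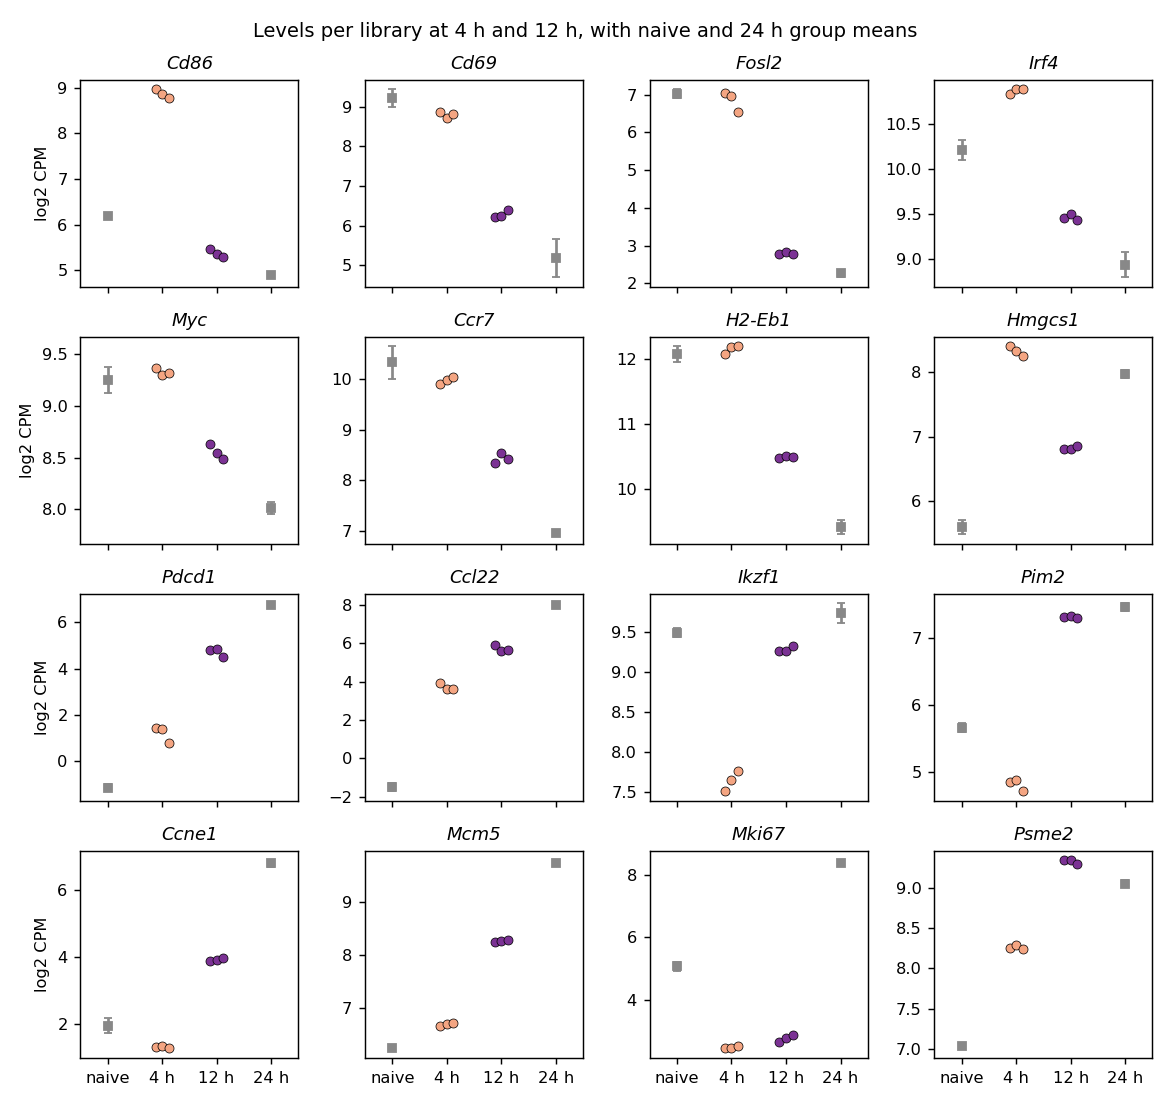
Levels (log2 CPM, vertical axis) of 16 named genes in each of the 3 libraries at 4 h (orange) and 12 h (purple); grey squares and bars give the mean and SD of the 3 naive and 3 24 h libraries. Cd86, Cd69, Fosl2, Irf4, Myc, Ccr7, H2-Eb1 and Hmgcs1 are lower in every 12 h library than in any 4 h library, and the other 8 genes are higher.

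Immediate-early genes were mostly lower at 12 h. Of 22 tested, 17 fell, 10 of them at least 2-fold, and 1 rose; the median was -0.78 log2. Fosl2, an AP-1 subunit (chr5:32135801-32157842, plus strand), stood at 7.05, 6.96 and 6.55 log2 CPM in the 4 h libraries and 2.79, 2.84 and 2.79 log2 CPM in the 12 h libraries and fell by 4.05 ± 0.20 log2 (SE, n = 3 and 3), or 16.5-fold, adjusted p = 9.86e-13. Nr4a2, an orphan nuclear receptor, stood at 5.91, 5.95 and 5.77 log2 CPM in the 4 h libraries and 2.46, 3.0 and 2.94 log2 CPM in the 12 h libraries, with no overlap between the groups. It fell by 3.08 ± 0.27 log2, the small Maf factor Maff by 2.91 ± 0.28 log2 and the stress-responsive factor Atf3 by 2.64 ± 0.35 log2. Egr3 was the member that rose, by 0.79 ± 0.26 log2, from 6.65 to 7.43 log2 CPM; without 4 h replicate 1 its adjusted p was 0.0574. Fos and Egr1, the textbook members, did not pass the test: the difference was -0.23 log2 for Fos (adjusted p = 0.602) and -0.50 log2 for Egr1 (adjusted p = 0.0752; 9.31e-06 when only the 6 libraries were fitted), and Fos was already at 3.89 log2 CPM at 4 h against 8.85 log2 CPM in naive cells.

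Feedback inhibitors of MAP kinase and JAK-STAT signalling moved in the same direction, with 12 of 19 lower, 8 at least 2-fold, 1 higher, and a median of -0.86 log2. The ERK phosphatase gene Dusp5 stood at 5.61, 5.69 and 5.72 log2 CPM in the 4 h libraries and 2.96, 3.33 and 3.38 log2 CPM in the 12 h libraries, and fell by 2.45 ± 0.13 log2. Spry4, an inhibitor of receptor tyrosine kinase signalling, was low and fell by 2.16 ± 0.30 log2 (0.21 to -1.94 log2 CPM), a difference of -0.78 log2 with a pseudocount of 1 CPM (added before taking logs). The cytokine signalling suppressors Socs1 and Socs3 fell by 2.0 ± 0.15 and 1.63 ± 0.23 log2. Spred2 rose by 0.54 ± 0.12 log2. Among 24 NF-kB subunits, inhibitors and adaptors, 15 fell and 3 rose, with a median of -0.33 log2, and only Tnfaip3 fell at least 2-fold. Tnfaip3, which encodes the deubiquitinase A20, fell by 1.52 ± 0.14 log2 (8.34 to 6.82 log2 CPM) and the inhibitor Nfkbia by 0.87 ± 0.094 log2, while Ikbke, a kinase related to the IkB kinases, rose by 1.3 ± 0.098 log2.

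Among the transcription factors that set B-cell fate, 20 of 38 fell, 11 at least 2-fold, and 10 rose, 4 at least 2-fold; the median was -0.24 log2. Irf4, required for both germinal center and plasma cell fates, stood at 10.83, 10.88 and 10.89 log2 CPM in the 4 h libraries and 9.46, 9.5 and 9.43 log2 CPM in the 12 h libraries, and fell by 1.4 ± 0.26 log2 (SE, n = 3 and 3), or 2.64-fold, adjusted p = 0.000151. Bcl6, a repressor that directs germinal center fate, fell by 1.39 ± 0.17 log2 (5.72 to 4.34 log2 CPM). Prdm1, which encodes Blimp-1, a repressor that directs plasma cell fate, fell by 1.22 ± 0.19 log2 (2.83 to 1.61 log2 CPM). Myc, the driver of growth, stood at 9.37, 9.3 and 9.31 log2 CPM in the 4 h libraries and 8.63, 8.55 and 8.49 log2 CPM in the 12 h libraries. It fell by 0.77 ± 0.096 log2, a change of under 2-fold but larger than the spread of either group. Id2, an inhibitor of E proteins, fell by 2.82 ± 0.16 log2 and Tbx21 (T-bet) by 1.5 ± 0.33 log2.

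The factors that rose included general lymphoid regulators. Ikzf1, the lymphoid zinc finger factor Ikaros, stood at 7.51, 7.65 and 7.76 log2 CPM in the 4 h libraries and 9.26, 9.27 and 9.32 log2 CPM in the 12 h libraries, and rose by 1.65 ± 0.065 log2 (SE, n = 3 and 3), or 3.13-fold, adjusted p = 1.72e-15; its naive mean was 9.49 log2 CPM. Pou2f2, the octamer factor Oct2, rose by 1.57 ± 0.10 log2 (5.94 to 7.51 log2 CPM), the E protein gene Tcf4 by 1.24 ± 0.083 log2 and Id3, an E-protein inhibitor, by 1.4 ± 0.12 log2. Id3 and Id2 thus differed in direction. Pax5, the guardian of B-cell identity, rose by 0.32 ± 0.089 log2.

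Secreted factors showed some of the widest differences. Of 20 cytokine and chemokine genes, 13 fell, 10 at least 2-fold, and 5 rose, 4 at least 2-fold; the median was -1.02 log2. Spp1, which encodes the matrix protein and cytokine osteopontin (chr5:104435118-104441050, plus strand), stood at 7.78, 7.97 and 7.71 log2 CPM in the 4 h libraries and 1.92, 2.07 and 1.99 log2 CPM in the 12 h libraries. It fell by 5.83 ± 0.16 log2 (SE, n = 3 and 3), or 56.9-fold, adjusted p = 6.95e-18, the largest fall among named genes with at least 10 CPM at 4 h; naive cells had 0.70 log2 CPM. Vegfa, an angiogenic factor, fell by 3.08 ± 0.24 log2 (5.21 to 2.12 log2 CPM) and the chemokine gene Ccl5 by 2.8 ± 0.45 log2 (2.25 to -0.54 log2 CPM; -1.75 log2 with a pseudocount of 1 CPM).

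Ccl22, a chemokine that attracts CCR4-bearing T cells, went the other way. It stood at 3.93, 3.62 and 3.62 log2 CPM in the 4 h libraries and 5.92, 5.6 and 5.63 log2 CPM in the 12 h libraries, and rose by 1.99 ± 0.48 log2 (SE, n = 3 and 3), or 3.98-fold, adjusted p = 0.00159; its mean was -1.52 log2 CPM in naive cells and 8.01 log2 CPM at 24 h. The TNF family ligand genes Tnfsf9 (4-1BB ligand) and Tnfsf4 (OX40 ligand) rose by 1.73 ± 0.34 and 1.44 ± 0.45 log2, and Ebi3, a shared cytokine subunit, by 1.41 ± 0.13 log2. All 3 were at 3 log2 CPM or less at 12 h, and with a pseudocount of 1 CPM the difference of Tnfsf9 was 0.71 log2.

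Cytokine receptor genes fell more often than they rose: 17 of 32 were lower, 8 at least 2-fold, and 5 higher, 3 at least 2-fold, with a median of -0.49 log2. Il1r1, the signalling receptor of interleukin 1, stood at 4.75, 4.29 and 3.96 log2 CPM in the 4 h libraries and 1.07, 0.61 and 0.24 log2 CPM in the 12 h libraries, a wide spread at both times without overlap, and fell by 3.69 ± 0.65 log2 (SE, n = 3 and 3), or 12.9-fold, adjusted p = 4.87e-05. Il7r fell by 2.64 ± 0.26 log2 (4.1 to 1.47 log2 CPM) and Tgfbr1, a receptor of TGF-beta, by 1.78 ± 0.10 log2 (7.75 to 5.97 log2 CPM). Il2ra, the high-affinity chain of the interleukin 2 receptor, was not called: it stood at 7.9, 7.82 and 7.77 log2 CPM in the 4 h libraries and 8.18, 8.08 and 8.1 log2 CPM in the 12 h libraries, a difference of 0.29 log2 (adjusted p = 0.321; 8.9e-05 when only the 6 libraries were fitted). Tnfrsf13b (TACI), a receptor of BAFF and APRIL, rose by 1.62 ± 0.079 log2 (4.08 to 5.71 log2 CPM), and Tnfrsf8 (CD30) by 1.75 ± 0.50 log2 (-1.63 to 0.12 log2 CPM; 0.65 log2 with a pseudocount of 1 CPM).

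Homing receptors and other follicular surface genes fell: 18 of 30, 12 at least 2-fold, against 2 that rose, with a median of -0.51 log2. Ccr7, which guides lymphocytes to the T-cell zone, stood at 9.9, 9.99 and 10.04 log2 CPM in the 4 h libraries and 8.33, 8.53 and 8.42 log2 CPM in the 12 h libraries, and fell by 1.55 ± 0.25 log2 (SE, n = 3 and 3), or 2.93-fold, adjusted p = 2.32e-05. Cxcr4, the receptor of CXCL12, stood at 9.73, 9.96 and 10.24 log2 CPM in the 4 h libraries and 7.43, 7.83 and 7.98 log2 CPM in the 12 h libraries. The 2 groups did not overlap and the fall was 2.23 ± 0.33 log2. S1pr3, a sphingosine 1-phosphate receptor, fell by 2.69 ± 0.20 log2, Rgs1, a brake on chemokine receptor signalling, by 2.39 ± 0.24 log2 and Ccr6 by 1.92 ± 0.14 log2. Cd38 rose by 0.72 ± 0.11 log2 and the integrin gene Itgal by 0.34 ± 0.077 log2. Of 10 marginal zone B-cell markers 6 fell and 1 rose; the falls included S1pr3, Cr2, Myof (-2.02 log2) and Cd9 (-1.16 log2); S1pr3, Cr2 and Cd9 also belong to other lists here. Their summed level was 1100 to 1170 CPM per library at 4 h and 555 to 561 CPM at 12 h.

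Genes of MHC class II and presentation mostly fell: 12 of 17 were lower, 8 at least 2-fold, and none higher. The median was -0.97 log2. The beta chain gene H2-Eb1 stood at 12.08, 12.19 and 12.2 log2 CPM in the 4 h libraries and 10.49, 10.51 and 10.5 log2 CPM in the 12 h libraries, and fell by 1.65 ± 0.065 log2 (SE, n = 3 and 3), or 3.15-fold, adjusted p = 2.07e-15. H2-Ab1 fell by 1.56 ± 0.081 log2 and H2-Aa by 1.3 ± 0.10 log2. Ciita, the class II transactivator that the class II chain genes depend on, fell by 1.25 ± 0.093 log2. It stood at 7.57, 7.69 and 7.92 log2 CPM in 4 h libraries and 6.53, 6.45 and 6.45 log2 CPM in 12 h libraries. The naive means of H2-Eb1 and H2-Ab1, 12.07 and 11.94 log2 CPM, were close to the 4 h means of 12.15 and 11.96 log2 CPM, and the 24 h means were 9.42 and 9.33 log2 CPM. The other 5 members were not called.

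Growth genes are given by the step they serve. Cytosolic ribosomal proteins rose almost as a block, 48 of 52, but by small amounts (median 0.34 log2, highest 0.61 log2), and 1, Rpl12, fell, by 0.13 ± 0.037 log2. Rpl15 rose by 0.61 ± 0.051 log2 and Rpl4 by 0.58 ± 0.074 log2. Several ribosomal proteins have many processed pseudogenes, so their counts may be split. Ribosome biogenesis and RNA polymerase I genes, high at both times, changed little: 22 of 48 rose, 3 fell, none by 2-fold, and the median was 0.15 log2. Ncl (nucleolin) stood at 12.11, 12.09 and 12.14 log2 CPM in the 4 h libraries and 12.83, 12.93 and 12.62 log2 CPM in the 12 h libraries, and rose by 0.68 ± 0.093 log2; the nucleolar chaperone gene Npm1 rose by 0.59 ± 0.059 log2, the helicase gene Ddx10 fell by 0.55 ± 0.073 log2. Translation initiation factors rose in 20 of 37 cases and fell in 7 (median 0.14 log2), with Eif2b4, part of the exchange factor eIF2B, up by 0.76 ± 0.055 log2 and Eif4ebp1, a repressor of cap-dependent initiation, down by 0.62 ± 0.12 log2.

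Genes for amino acid transport mostly went the opposite way. Of 16 amino acid transporter genes, 13 fell, 5 at least 2-fold, and 1 rose, with a median of -0.52 log2. Slc7a5, the large neutral amino acid transporter LAT1, stood at 9.02, 9.17 and 9.13 log2 CPM in the 4 h libraries and 7.79, 7.93 and 7.96 log2 CPM in the 12 h libraries, and fell by 1.21 ± 0.10 log2 (SE, n = 3 and 3), or 2.31-fold, adjusted p = 1.5e-09. The cationic amino acid transporter gene Slc7a1 fell by 1.98 ± 0.080 log2 (9.18 to 7.2 log2 CPM), the glycine transporter gene Slc6a9 by 2.8 ± 0.38 log2 and Slc1a4 by 1.6 ± 0.25 log2. The 20 cytosolic aminoacyl-tRNA synthetases split, 8 higher and 10 lower (median -0.16 log2), with Sars, for serine, lowest at -0.85 log2 and Qars, for glutamine, highest at 0.66 log2. Asns (asparagine synthetase) and Trib3, known targets of the ATF4 response to amino acid shortage, fell by 0.94 ± 0.14 and 1.85 ± 0.26 log2, and Psat1, of serine synthesis, by 1.34 ± 0.069 log2. These 3 genes belong to other lists, named below, and were not set apart as a group beforehand.

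Genes of the mitochondrion mostly rose, in most cases by less than 2-fold. Those of the respiratory chain, the ATP synthase and the mitochondrial ribosome did so nearly without exception. All 35 genes tested of complexes III and IV and ATP synthase, the carrier cytochrome c (Cycs) included, were called higher (median 0.64 log2). So were 35 of 36 complex I subunits (median 0.60 log2) and all 71 mitochondrial ribosomal proteins (median 0.51 log2). Ndufv1, a core subunit of complex I, stood at 6.22, 6.27 and 6.25 log2 CPM in the 4 h libraries and 7.07, 7.11 and 7.09 log2 CPM in the 12 h libraries, and rose by 0.84 ± 0.056 log2 (SE, n = 3 and 3), or 1.79-fold, adjusted p = 1.33e-11. Uqcr11, of complex III, rose by 1.02 ± 0.071 log2 and Atp5d, of the ATP synthase, by 0.94 ± 0.055 log2. Mrpl49, a protein of the large mitochondrial ribosomal subunit, stood at 4.64, 4.51 and 4.39 log2 CPM in the 4 h libraries and 5.7, 5.67 and 5.67 log2 CPM in the 12 h libraries. It rose by 1.17 ± 0.074 log2 and Mrps25, of the small subunit, by 1.15 ± 0.071 log2. Import and chaperone genes rose in 24 of 32 cases and fell in 2 (median 0.29 log2); Tomm7, of the outer membrane translocase, rose by 0.94 ± 0.058 log2 and the co-chaperonin gene Hspe1 by 0.84 ± 0.080 log2. Of all genes tested, 34.6% rose.

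The oxidative enzymes of the mitochondrion followed. TCA cycle and pyruvate entry genes rose in 23 of 30 cases and fell in 1 (median 0.48 log2). Idh2, the mitochondrial NADP-dependent isocitrate dehydrogenase, rose by 1.09 ± 0.081 log2, Fh1 (fumarase) by 1.0 ± 0.055 log2 and Pdk3, a kinase that inhibits pyruvate dehydrogenase, by 1.26 ± 0.050 log2; Mpc1, of the pyruvate carrier, fell by 0.34 ± 0.10 log2. All 4 succinate dehydrogenase subunits rose, by 0.45 to 0.84 log2. Of 19 genes for mitochondrial oxidation of fatty acids 16 were higher (median 0.56 log2), with Hadh at 4.16, 4.28 and 4.21 log2 CPM in the 4 h libraries and 5.59, 5.54 and 5.5 log2 CPM in the 12 h libraries, a rise of 1.33 ± 0.065 log2 (SE, n = 3 and 3), or 2.51-fold, adjusted p = 6.26e-14. Its naive mean was 5.71 log2 CPM. The 2 members that fell act at entry: Cpt1a, the carnitine palmitoyltransferase of the outer membrane, by 0.84 ± 0.065 log2 and Slc25a20, the carnitine carrier, by 0.48 ± 0.081 log2.

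Glycolysis genes were divided, 11 of 21 higher and 6 lower, with a median of 0.42 log2. Gapdh rose by 0.96 ± 0.040 log2, from 8.85, 8.94 and 8.9 log2 CPM in the 4 h libraries and 9.85, 9.85 and 9.87 log2 CPM in the 12 h libraries. Aldoc, an aldolase, rose by 1.23 ± 0.16 log2 and Pfkm, a phosphofructokinase, by 0.93 ± 0.12 log2. The glucose transporter gene Slc2a1 fell by 0.90 ± 0.15 log2, Hk2 (hexokinase 2) by 0.49 ± 0.11 log2 and Ldha (lactate dehydrogenase A) by 0.66 ± 0.061 log2. In the pentose phosphate pathway 3 of 7 rose and 1 fell (median 0.12 log2), with Pgls at 0.94 log2. Hypoxia and HIF1 targets, which share Vegfa, Slc2a1, Ldha and Pgk1 with other lists, fell in 8 of 18 cases and rose in 2 (median -0.36 log2).

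Cholesterol synthesis and uptake genes had the lowest median of the 48 gene lists, -1.10 log2; the T-cell, NK-cell, dendritic cell and platelet marker lists had lower ones, -1.42, -1.80, -1.44 and -1.34 log2. Of 24, 21 fell, 14 at least 2-fold, and 2 rose, among them Ebp by 0.33 ± 0.078 log2. Hmgcs1, which makes the precursor of mevalonate, stood at 8.41, 8.34 and 8.25 log2 CPM in the 4 h libraries and 6.81, 6.81 and 6.85 log2 CPM in the 12 h libraries, and fell by 1.51 ± 0.074 log2 (SE, n = 3 and 3), or 2.85-fold, adjusted p = 6.51e-14. Insig1, the sterol-regulated retention protein, fell by 2.15 ± 0.13 log2 and Sc4mol, the older symbol of the methylsterol oxidase Msmo1, by 1.55 ± 0.11 log2. At 12 h these 3 were above their naive means, which were 5.59 log2 CPM for Hmgcs1, 5.81 for Insig1 and 3.82 for Sc4mol; the 24 h means were 7.98, 6.85 and 6.62 log2 CPM.

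Sterol-regulated promoters are bound by SREBP together with the CCAAT-binding factor NF-Y. In the RefSeq promoter windows (GRCm38.p6, 250 bases before to 50 after the start), 17 of the 24 genes had an entry, and 15 of these, 88.2%, held the letters CCAAT on either strand, against 39.4% of the 9545 tested genes with an entry and 37.9% of all 27025 promoters. The sterol response letters TCANNCCA were found in 3 of 17 (17.6%), against 12.5% of tested genes. A high CCAAT share was not particular to this list. In the other gene lists searched it ran from 21.1% (homing and follicular surface genes) to 88% (mitosis), with 69.2% for MHC class II and presentation genes. Other motifs were searched in the same lists, and not all shares are given here. The windows of 2 members with large falls among those with the letters are shown, CCAAT or its reverse complement in capitals. Insig1 is at chr5:28071162-28071461 on the plus strand and Sc4mol at chr8:64733529-64733828 on the minus strand.
Insig1: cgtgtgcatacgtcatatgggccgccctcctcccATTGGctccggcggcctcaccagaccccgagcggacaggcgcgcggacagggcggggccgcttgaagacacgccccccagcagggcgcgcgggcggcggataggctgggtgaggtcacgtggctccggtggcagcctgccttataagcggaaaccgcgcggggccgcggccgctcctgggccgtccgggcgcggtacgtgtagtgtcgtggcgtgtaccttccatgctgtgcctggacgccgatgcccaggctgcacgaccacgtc
Sc4mol: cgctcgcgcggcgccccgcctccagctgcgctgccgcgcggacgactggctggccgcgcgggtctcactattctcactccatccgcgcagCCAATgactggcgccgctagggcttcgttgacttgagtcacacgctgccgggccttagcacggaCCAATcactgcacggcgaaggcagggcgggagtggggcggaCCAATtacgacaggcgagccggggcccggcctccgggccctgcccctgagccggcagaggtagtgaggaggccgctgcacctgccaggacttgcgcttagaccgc

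Other lipid genes moved less uniformly. In fatty acid synthesis and desaturation 7 of 14 fell and 3 rose (median -0.20 log2): Fasn, the fatty acid synthase, fell by 1.13 ± 0.10 log2, Acsl3 by 1.56 ± 0.077 log2 and Scd1 by 0.79 ± 0.057 log2, whereas Acss2, an acetyl-CoA synthetase, rose by 1.2 ± 0.18 log2 (0.78 with a pseudocount of 1 CPM) and the desaturase gene Fads1 by 0.95 ± 0.076 log2. Of 7 cholesterol export and LXR target genes, 3 fell and none rose, among them the exporters Abca1 (-1.92 log2) and Abcg1 (-1.04 log2). Synthesis genes and export genes therefore both held members that fell. Serine and one-carbon metabolism genes were split, 7 higher and 6 lower of 17 (median 0.03 log2); the rises included Tyms, the thymidylate synthase, at 1.4 log2, and the falls were led by Psat1 and Mthfd2, at -1.34 and -0.76 log2.

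Proteasome and cytosolic chaperone genes mostly rose, and ER folding genes were split. Of 38 proteasome subunits and activators, 36 were higher, none lower, with a median of 0.60 log2. Psme2, of the PA28 activator, stood at 8.25, 8.29 and 8.24 log2 CPM in the 4 h libraries and 9.34, 9.34 and 9.29 log2 CPM in the 12 h libraries, and rose by 1.06 ± 0.052 log2 (SE, n = 3 and 3), or 2.08-fold, adjusted p = 7.18e-14. Psmb8, an immunoproteasome protease, rose by 0.95 ± 0.054 log2 and Psma1, of the core ring, by 0.94 ± 0.052 log2. All 6 base ATPases rose by 0.40 to 0.86 log2. Cytosolic chaperones rose in 19 of 26 cases and fell in 3 (median 0.29 log2): Hsp90ab1, the constitutive HSP90, rose by 0.90 ± 0.073 log2 (12.39 to 13.29 log2 CPM), and the inducible pair Hspa1a and Hspa1b, near-identical genes whose reads may be split, fell by 3.41 ± 0.39 and 1.82 ± 0.53 log2 from under 2 CPM (-1.16 and -0.79 log2 with a pseudocount of 1 CPM). All 8 CCT chaperonin subunits rose, by 0.11 to 0.55 log2. In ER folding and the unfolded protein response 12 of 28 fell and 7 rose (median -0.12 log2), with Trib3 and Dnajb9 lowest (-1.85 and -1.33 log2) and Derl3, of ER-associated degradation, highest (1.41 log2).

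Antioxidant genes rose in 14 of 22 cases, 4 at least 2-fold, and fell in 3 (median 0.44 log2). Gpx1, a glutathione peroxidase, stood at 6.35, 6.44 and 6.39 log2 CPM in the 4 h libraries and 7.95, 7.93 and 7.99 log2 CPM in the 12 h libraries, and rose by 1.56 ± 0.10 log2 (SE, n = 3 and 3), or 2.96-fold, adjusted p = 2.2e-11. Txn1 (thioredoxin) stood at 6.49, 6.52 and 6.51 log2 CPM in the 4 h libraries and 8.01, 7.99 and 7.98 log2 CPM in the 12 h libraries, with a rise of 1.49 ± 0.053 log2. Prdx2, a peroxiredoxin, rose by 1.03 ± 0.088 log2, and Gclc, the catalytic subunit of glutathione synthesis, fell by 0.54 ± 0.059 log2. Lysosome and autophagy genes showed 6 higher and 9 lower of 28 (median -0.11 log2), with Grn (progranulin) up by 0.86 ± 0.20 log2 and Map1lc3a, an LC3 family member, down by 1.15 ± 0.11 log2. Spliceosome genes rose in 33 of 40 cases and none fell (median 0.44 log2), led by Snrpa1 at 0.89 log2.

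Cell-cycle genes were among the clearest rises. Ccne1, the cyclin that activates CDK2 at the G1 to S boundary (chr7:38097984-38107534, minus strand), stood at 1.32, 1.34 and 1.28 log2 CPM in the 4 h libraries and 3.88, 3.91 and 3.98 log2 CPM in the 12 h libraries. It rose by 2.61 ± 0.11 log2 (SE, n = 3 and 3), or 6.09-fold, adjusted p = 5.6e-15, and its mean at 24 h was 6.78 log2 CPM. The D-type cyclin gene Ccnd2 rose by 0.84 ± 0.15 log2 (8.16 to 9.0 log2 CPM), while Cdk6 fell by 1.23 ± 0.13 log2. In all, 9 of 13 G1 cyclins and kinases rose and 2 fell (median 0.30 log2). Of 27 CDK inhibitors, p53 targets and quiescence genes, 15 fell, 5 at least 2-fold, and 3 rose (median -0.39 log2). Cdkn1a, the inhibitor p21, fell by 1.97 ± 0.26 log2 (2.3 to 0.33 log2 CPM), Gadd45g by 1.84 ± 0.19 log2 and Tsc22d3, a glucocorticoid-induced gene, by 1.44 ± 0.13 log2. Cdkn1b, the inhibitor p27, was not called: 5.33, 5.28 and 5.3 log2 CPM in the 4 h libraries and 5.41, 5.3 and 5.24 log2 CPM in the 12 h libraries, adjusted p = 0.96.

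In the E2F and retinoblastoma families 8 of 13 rose and none fell (median 0.31 log2). The repressor E2Fs E2f8 and E2f7 rose by 2.0 ± 0.10 and 0.91 ± 0.14 log2, from -1.42 to 0.58 and -1.8 to -0.89 log2 CPM (0.86 and 0.26 log2 with a pseudocount of 1 CPM), and the pocket protein gene Rbl1 (p107) by 1.04 ± 0.064 log2; E2f1 rose by 0.52 ± 0.083 log2 (3.06 to 3.58 log2 CPM). Rb1, the retinoblastoma gene, was not called (-0.12 log2, adjusted p = 0.241).

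Replication licensing genes had the highest median of the 48 gene lists, 1.07 log2: 19 of 24 rose, 12 at least 2-fold, and 2 fell. Licensing loads the MCM helicase on origins before S phase. Mcm5, one of its subunits, stood at 6.65, 6.7 and 6.71 log2 CPM in the 4 h libraries and 8.24, 8.26 and 8.28 log2 CPM in the 12 h libraries, and rose by 1.57 ± 0.051 log2 (SE, n = 3 and 3), or 2.98-fold, adjusted p = 5e-17. All 6 subunits of the MCM2-7 helicase rose, by 0.97 to 1.57 log2, and their means lay between 6.01 and 7.05 log2 CPM at 4 h, 7.41 and 8.26 at 12 h, and 8.96 and 10.07 at 24 h. Mcm10, which acts when the helicase is activated, stood at -0.39, -0.33 and -0.36 log2 CPM in the 4 h libraries and 2.96, 2.84 and 2.92 log2 CPM in the 12 h libraries, a rise of 3.27 ± 0.084 log2 (SE, n = 3 and 3), or 9.62-fold, adjusted p = 1.74e-18. Cdc45 and Gins2, partners of the active helicase, rose by 2.21 ± 0.069 and 2.16 ± 0.094 log2, and Orc1, the origin recognition subunit that varies with the cycle, by 2.13 ± 0.10 log2. The other origin recognition subunits included 2 that were not called, and over all 6 the differences ran from 0.11 to 2.13 log2. Cdt1, the loader of MCM, fell by 0.40 ± 0.083 log2 and Dbf4, the activator of the CDC7 kinase, by 0.46 ± 0.066 log2.

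Of 40 genes of DNA synthesis and S phase, 38 rose, 16 at least 2-fold, and 2 fell; the median was 0.87 log2. Clspn (claspin), a replication fork checkpoint mediator, rose by 2.61 ± 0.13 log2 from under 1 CPM (1.48 log2 with a pseudocount of 1 CPM). Chek1, the checkpoint kinase that claspin helps to activate and a gene outside the list, stood at 1.63, 1.28 and 1.47 log2 CPM in the 4 h libraries and 4.16, 4.11 and 4.21 log2 CPM in the 12 h libraries, a rise of 2.7 ± 0.10 log2 (SE, n = 3 and 3), or 6.49-fold, adjusted p = 1.43e-15. Chaf1a, which deposits histones on new DNA, stood at 2.36, 2.27 and 2.54 log2 CPM in the 4 h libraries and 4.6, 4.71 and 4.68 log2 CPM in the 12 h libraries. It rose by 2.27 ± 0.073 log2, and Uhrf1 and Hells, which act in maintenance of DNA methylation, rose by 2.08 ± 0.051 and 1.86 ± 0.14 log2. All 5 replication factor C subunits rose, by 0.71 to 1.24 log2. Tk1, the salvage thymidine kinase, fell by 0.79 ± 0.075 log2, and Ung, the uracil glycosylase, by 0.27 ± 0.081 log2, against the rest of the list. Nucleotide synthesis genes rose in 19 of 30 cases and fell in 3 (median 0.26 log2); Rrm2, the cell-cycle-regulated subunit of ribonucleotide reductase, rose by 1.46 ± 0.083 log2 (1.38 to 2.83 log2 CPM) and Dut by 1.01 ± 0.061 log2, while Impdh1 fell by 1.14 ± 0.077 log2.

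Many replication promoters carry sites for E2F. The letters TTTNGCGC were searched on both strands of the RefSeq windows, and matches can overlap each other. They were found in 6 of 19 licensing genes with an entry (31.6%) and 4 of 33 DNA synthesis genes (12.1%), against 2.65% of tested genes and 1.38% of all promoters; among genes called and at least 2-fold higher the share was 4.27%, and among those at least 2-fold lower 1.88%. The windows of 4 members of these lists with large rises among those with the letters are shown with the match in capitals. Clspn is at chr4:126556730-126557029 on the plus strand, Orc1 at chr4:108579204-108579503 on the plus strand, Pole2 (a subunit of DNA polymerase epsilon) at chr12:69228141-69228440 on the minus strand and Mcm5 at chr8:75109259-75109558 on the plus strand; the Mcm5 window held 2 matches that overlap.
Clspn: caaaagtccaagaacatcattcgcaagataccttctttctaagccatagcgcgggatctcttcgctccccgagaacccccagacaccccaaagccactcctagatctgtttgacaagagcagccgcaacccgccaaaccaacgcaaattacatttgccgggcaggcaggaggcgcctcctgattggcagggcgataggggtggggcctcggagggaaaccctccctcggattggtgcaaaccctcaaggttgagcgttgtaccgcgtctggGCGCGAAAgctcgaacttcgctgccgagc
Orc1: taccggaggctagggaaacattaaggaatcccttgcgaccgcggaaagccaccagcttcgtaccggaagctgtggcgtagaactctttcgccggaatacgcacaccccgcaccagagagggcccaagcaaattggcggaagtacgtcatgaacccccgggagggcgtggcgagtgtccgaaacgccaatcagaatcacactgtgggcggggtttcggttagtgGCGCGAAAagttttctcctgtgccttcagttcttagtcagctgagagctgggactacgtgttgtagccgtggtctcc
Pole2: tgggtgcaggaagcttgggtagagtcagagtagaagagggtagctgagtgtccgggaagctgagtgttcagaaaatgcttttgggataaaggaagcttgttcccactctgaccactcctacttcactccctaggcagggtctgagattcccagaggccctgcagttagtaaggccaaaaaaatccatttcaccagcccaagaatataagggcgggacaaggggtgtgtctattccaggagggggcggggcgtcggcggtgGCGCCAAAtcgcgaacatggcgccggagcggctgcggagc
Mcm5: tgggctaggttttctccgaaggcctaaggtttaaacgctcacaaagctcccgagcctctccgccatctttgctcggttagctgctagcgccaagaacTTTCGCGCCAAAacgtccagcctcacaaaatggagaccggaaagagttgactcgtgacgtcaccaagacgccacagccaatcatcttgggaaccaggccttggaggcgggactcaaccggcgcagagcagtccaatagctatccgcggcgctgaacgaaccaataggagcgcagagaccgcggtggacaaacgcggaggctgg

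**Figure D3:**
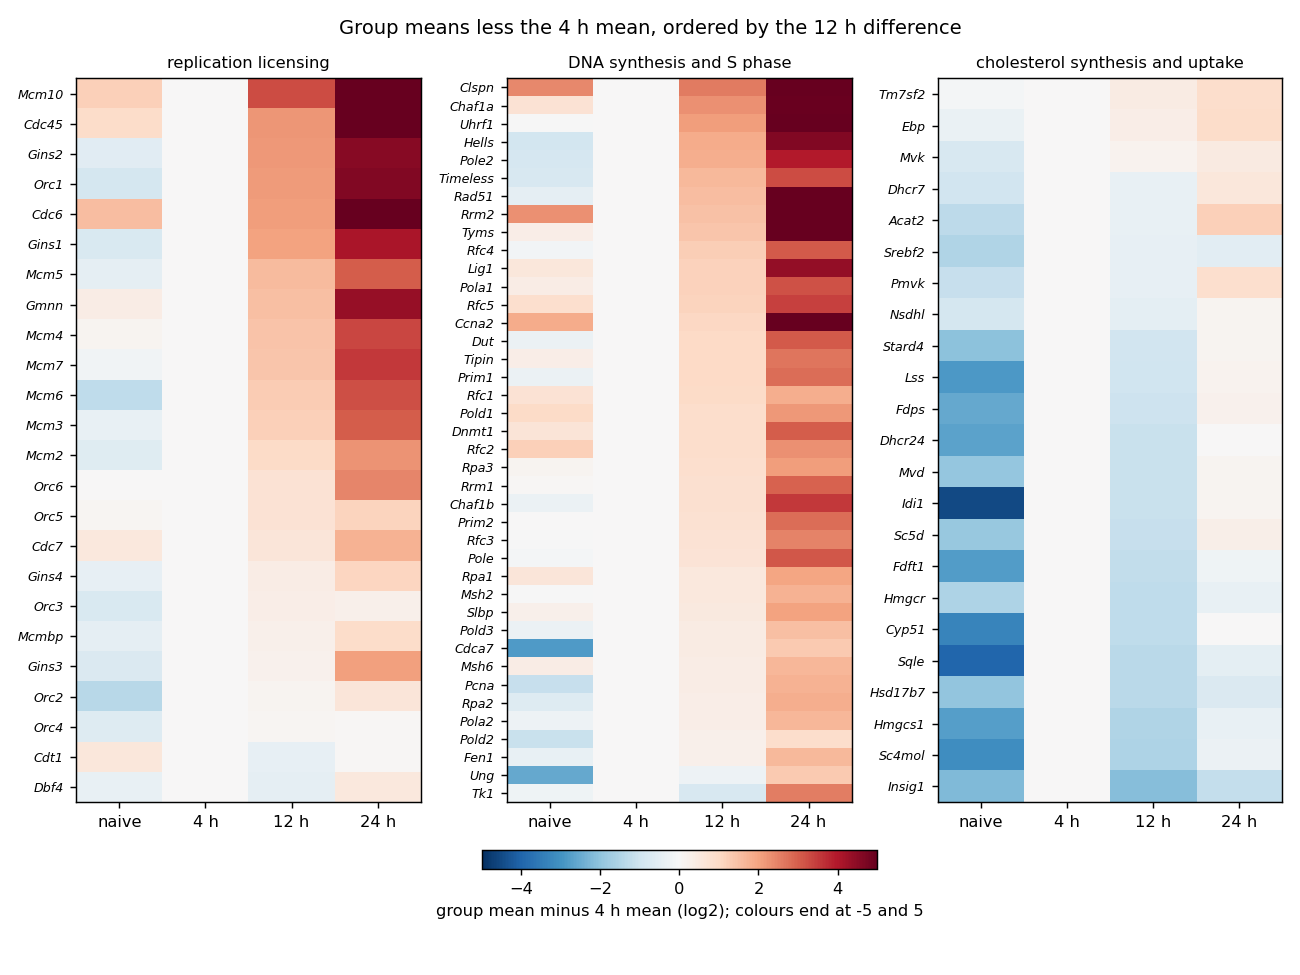
Group means less the 4 h mean (log2, colour) for members of 3 gene lists (all but 1 of the cholesterol list) in naive, 4 h, 12 h and 24 h libraries (3 each), ordered by the difference at 12 h; the 4 h column is zero by construction. Licensing and DNA synthesis genes are red at 12 h except Cdt1, Dbf4, Tk1 and Ung, and most cholesterol genes are blue at 12 h.

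Mitotic genes rose from low levels. Of 29, 20 rose, 7 at least 2-fold, and 4 fell; the median was 0.54 log2. Cdk1, the mitotic kinase, stood at -0.23, 0.08 and -0.31 log2 CPM in the 4 h libraries and 2.19, 2.17 and 2.23 log2 CPM in the 12 h libraries, and rose by 2.35 ± 0.13 log2 (SE, n = 3 and 3), or 5.1-fold, adjusted p = 1.29e-12. The spindle checkpoint genes Bub1 and Bub1b rose by 2.14 ± 0.14 and 1.96 ± 0.086 log2. With a pseudocount of 1 CPM the differences were 1.55 log2 for Cdk1 and 1.3 for Bub1. Mki67, the proliferation marker, stood at 2.46, 2.46 and 2.53 log2 CPM in the 4 h libraries and 2.66, 2.8 and 2.87 log2 CPM in the 12 h libraries, a rise of 0.29 ± 0.11 log2 to a level below the naive mean of 5.08 log2 CPM; its mean at 24 h was 8.39 log2 CPM. That small rise (adjusted p = 0.023) was not called without 12 h replicate 2 or 3 or without 4 h replicate 1 or 2 (adjusted p between 0.0584 and 0.0916). Birc5 (survivin) and Ccnb2 (cyclin B2) fell by 0.78 ± 0.11 and 0.67 ± 0.11 log2 (-0.37 log2 for Ccnb2 with that pseudocount), and the mitotic factor gene Foxm1 by 0.33 ± 0.084 log2. In the promoter windows of this list the cell-cycle homology region letters TTTGAA were found in 17 of 25 genes (68%, against 12.2% of tested genes) and CCAAT in 22 of 25 (88%, against 39.4%).

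Survival genes were split in both directions. Of 15 anti-apoptotic genes 5 rose and 6 fell (median 0.06 log2). Pim2, a survival kinase, stood at 4.84, 4.88 and 4.71 log2 CPM in the 4 h libraries and 7.31, 7.33 and 7.29 log2 CPM in the 12 h libraries, and rose by 2.5 ± 0.077 log2 (SE, n = 3 and 3), or 5.67-fold, adjusted p = 2.75e-17. Its relatives went the other way: Pim1 fell by 1.66 ± 0.10 log2 and Pim3 by 1.01 ± 0.082 log2. Bcl2 rose by 0.91 ± 0.11 log2 (4.33 to 5.25 log2 CPM) and Bcl2l1 (BCL-XL) by 0.70 ± 0.093 log2, while Mcl1 fell by 0.56 ± 0.065 log2 and Cflar, an inhibitor of caspase 8, by 1.01 ± 0.082 log2. Among 16 pro-apoptotic genes 9 rose and 3 fell (median 0.26 log2): the p53 target Bbc3 (PUMA) fell by 1.83 ± 0.28 log2 and Pmaip1 (NOXA) by 1.21 ± 0.17 log2, and Bak1 and Bid rose by 0.81 ± 0.049 and 0.81 ± 0.095 log2.

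Differentiation genes showed no single direction. In class switching and mutation 13 of 25 rose and 8 fell (median 0.18 log2). Exo1, a mismatch repair exonuclease, rose by 1.15 ± 0.14 log2 and Xrcc6 (Ku70) by 0.79 ± 0.055 log2, and Dclre1c (Artemis) fell by 1.09 ± 0.12 log2. Of 16 plasma cell differentiation genes 5 rose and 6 fell (median -0.20 log2); Igj, the joining chain, fell by 1.06 ± 0.11 log2 and Mzb1, an ER cofactor of antibody secretion, rose by 0.92 ± 0.054 log2. Xbp1 was not called (-0.29 log2, adjusted p = 0.153; 4.73e-05 when only the 6 libraries were fitted), nor was Sdc1 (-0.18 log2, adjusted p = 0.596).

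Of 26 chromatin and DNA methylation genes 10 rose and 9 fell (median 0.05 log2). Hdac7, a class IIa histone deacetylase, stood at 5.59, 5.71 and 5.85 log2 CPM in the 4 h libraries and 7.7, 7.75 and 7.76 log2 CPM in the 12 h libraries, and rose by 2.02 ± 0.081 log2 (SE, n = 3 and 3), or 4.06-fold, adjusted p = 2.46e-15; Ezh2, the Polycomb methyltransferase, rose by 1.58 ± 0.063 log2. Kdm6b, a demethylase that removes the Polycomb mark, fell by 1.43 ± 0.12 log2. In PI3K, AKT and mTORC1 regulation 15 of 25 fell and 6 rose (median -0.31 log2): Irs2, an insulin receptor substrate, stood at 7.14, 7.15 and 7.31 log2 CPM in the 4 h libraries and 4.49, 4.79 and 4.95 log2 CPM in the 12 h libraries, the largest fall of that list at 2.46 ± 0.17 log2, and Rps6ka1, an ERK-activated kinase, rose by 1.44 ± 0.061 log2. Interferon response genes fell in 10 of 30 cases and rose in 3 (median -0.21 log2), near the background of 27.2% lower, with Oasl1 lowest among those called (-1.37 log2).

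**Figure D4:**
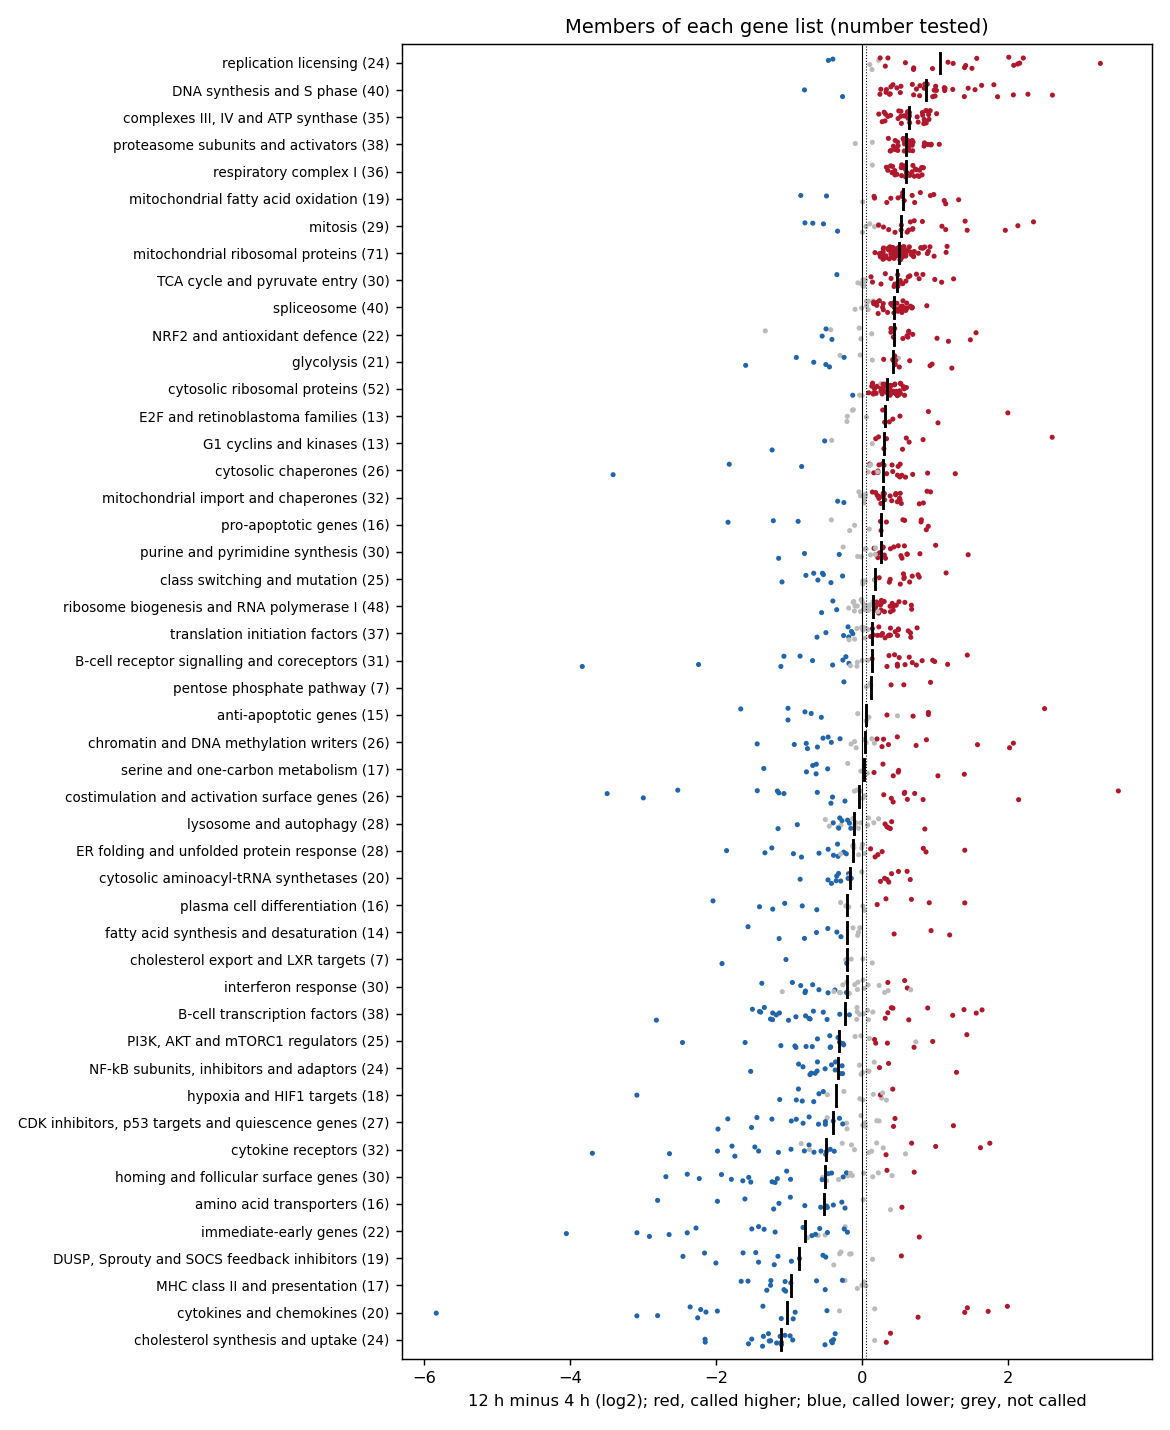
Difference between 12 h and 4 h (log2, horizontal axis) for each tested member of the 48 gene lists (rows, ordered by median, number tested in brackets); red points were called higher, blue lower, grey not called, black bars mark list medians and the dotted line the median of all genes. Licensing and DNA synthesis lists lie farthest to the right (medians 1.07 and 0.87) and cholesterol synthesis and cytokine lists farthest to the left (-1.10 and -1.02).

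Several of the most changed genes belonged to none of these lists. Rnf150, a RING finger gene, stood at -2.26, -2.69 and -2.21 log2 CPM in the 4 h libraries and 3.21, 2.98 and 3.88 log2 CPM in the 12 h libraries, and rose by 5.74 ± 0.74 log2 (SE, n = 3 and 3), or 53.5-fold, adjusted p = 6.01e-07. That size rests on a 4 h level under 1 CPM: with a pseudocount of 1 CPM the difference was 3.24 log2. Its mean was 1.77 log2 CPM at 24 h. Sirpa, an inhibitory receptor for CD47, stood at 0.71, 0.78 and 0.69 log2 CPM in the 4 h libraries and 4.04, 4.0 and 4.07 log2 CPM in the 12 h libraries, and rose by 3.31 ± 0.29 log2 (SE, n = 3 and 3), or 9.89-fold, adjusted p = 5.77e-09. Axl, a TAM receptor kinase, stood at 4.3, 4.05 and 4.26 log2 CPM in the 4 h libraries and 6.51, 6.02 and 6.51 log2 CPM in the 12 h libraries. Its groups did not overlap, and the rise was 2.14 ± 0.51 log2. Ncf4, the p40phox subunit of the phagocyte oxidase, rose by 2.08 ± 0.073 log2 (5.84 to 7.92 log2 CPM), Rgs10 by 2.46 ± 0.085 log2 and Tmem154 by 3.06 ± 0.27 log2.

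The falls outside the lists included genes of adhesion and matrix. Plau, the urokinase plasminogen activator, stood at 7.29, 7.08 and 7.11 log2 CPM in the 4 h libraries and 3.62, 3.4 and 3.45 log2 CPM in the 12 h libraries, and fell by 3.66 ± 0.26 log2 (SE, n = 3 and 3), or 12.7-fold, adjusted p = 1.48e-10. Itga9, an integrin chain, fell by 4.33 ± 0.45 log2, the unconventional myosin gene Myo1d by 3.0 ± 0.17 log2, and the matrix glycoprotein gene Emilin2 by 3.52 ± 0.33 log2. Gng4, a G-protein gamma subunit, stood at 5.51, 5.12 and 5.25 log2 CPM in the 4 h libraries and 0.64, 0.20 and 0.16 log2 CPM in the 12 h libraries, and fell by 4.96 ± 0.76 log2 (SE, n = 3 and 3), or 31.1-fold, adjusted p = 5.71e-06. Nrgn, which encodes a calmodulin-binding protein, fell by 3.06 ± 0.20 log2, and its 24 h mean of 5.22 log2 CPM was above both its 4 h mean of 4.86 and its 12 h mean of 1.8 log2 CPM.

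Markers of other spleen cells differed by list. The sums of T-cell, NK-cell, neutrophil, erythroid, dendritic cell and platelet markers were lower at 12 h. Those of stromal and plasma cell markers were not. Summed over each list, T-cell markers were at 5.31 to 7.04 CPM per library at 4 h and 2.86 to 3.96 CPM at 12 h (4 of 7 tested fell, none rose; Cd4 was at the floor of the data at 12 h), and NK-cell markers at 16.2 to 24.2 and 6.67 to 10.6 CPM (6 of 8 fell). Neutrophil markers were at 10.6 to 18.8 and 6.59 to 10.5 CPM (none of 8 called) and erythroid markers at 5.21 to 9.41 and 3.61 to 5.34 CPM (1 of 5 fell; Hba-a1 and Hba-a2 were at the floor at both times). Hba-a1 and Hba-a2 were also at the floor in naive cells, where the erythroid sum was 90.7 to 101 CPM. Dendritic cell markers were at 56.6 to 59.9 and 19.6 to 20.6 CPM (4 of 6 fell). Platelet markers, of which Itgb3 was the main one, were at 140 to 143 and 32.6 to 36.1 CPM (1 of 2 tested fell; Ppbp and Gp1bb were at the floor at 12 h), and stromal markers, mainly Pecam1, at 48.7 to 54.7 and 52.7 to 56.7 CPM (1 of 3 rose; Pdgfra was at the floor at both times). Plasma cell markers were at 268 to 283 and 294 to 318 CPM (1 of 6 rose and 2 fell).

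Macrophage and monocyte markers bear on the rises of Sirpa and Axl and the falls of Lilrb4, Spp1 and Cd300lf (-3.53 log2), which are known from myeloid cells. Their sum was 14 to 16.7 CPM per library at 4 h and 20 to 22 CPM at 12 h. Of 12 tested, 1 rose and 4 fell. The one that rose was Emr1 (F4/80), at 0.97, 1.04 and 1.09 log2 CPM in the 4 h libraries and 3.71, 3.65 and 3.79 log2 CPM in the 12 h libraries, a rise of 2.68 ± 0.25 log2. No other member tested was called higher. Among these others, Csf1r, Lyz2, C1qa and C1qb had means of -2.06, 0.57, -4.9 and -5.14 log2 CPM at 12 h. Their 4 h means are not given here. The summed level of the list includes Emr1, and a sum without Emr1 was not taken. The T-cell and NK-cell sums stand beside the falls of Cd5, Ccl5, Il7r, Tbx21 and Eomes (-2.6 log2, -1.39 with a pseudocount of 1 CPM), genes also expressed in those cells. Whether other cells had a part in these results was not tested.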

How the data were processed

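RNA was measured in 24 libraries of mouse splenic B cells in 8 groups of 3. The authors deposited 1 log2 value per gene and library. The submitters' processing notes name STAR 2.6.0c, mm10, featureCounts, Subread 1.6.2, limma, cutadapt 1.8.3 and FastQC 0.11.5, without saying how each was used. On a linear scale the values sum to between 990678 and 1008194 per library, hence are read as log2 CPM; depth is unknown, so no limit of detection is given. Libraries share nearly 1 distribution, and the means of the replicate numbers are equal for each gene (largest difference 0.0009 log2), so a difference between replicate numbers had been taken out before deposit, which can make spreads too small. Values under -5 log2 are called the floor.

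Limma 3.58.1 in R 4.3.3 was fitted to all 24 libraries with 1 mean per group, a variance trend and robust moderation (16 residual degrees of freedom), two-sided, with Benjamini-Hochberg adjustment over 11885 genes (at least 0 log2 in 3 libraries). It was tested on simulated data. Figures were drawn with matplotlib 3.10.9 and tables with pandas 2.3.3 under Python 3.11.15. Members and the 48 gene and 11 marker lists were chosen with earlier results of these data known. Of the list entries, 59 repeat a gene already in another list. Named genes were up to 20 per direction with the largest differences (called, at least 2-fold, at least 10 CPM, no overlap), up to 4 per list and direction, members of lists of up to 15, and a fixed set. Alternatives changed the fit, the filter, a pseudocount and the centring, or left out each of the 6 libraries in turn. Levels are not corrected for gene length and are not compared between genes. Some list members counted in the totals are not reported here by name.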

Additional observations from a re-analysis of the deposited data

How the results depend on the processing

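The total of 7351 calls ranged from 6729 to 6896 with 1 library left out (lowest without 12 h replicate 1, highest without 4 h replicate 1), and from 6805 to 8470 under the other alternatives; of the main calls, 90.4% to 99.7% kept their direction and call. The count of genes called and at least 2-fold higher, 627, was 417 when 2 log2 was required in place of 0 and 267 with a pseudocount of 1, and the count at least 2-fold lower, 815, was 526 with that pseudocount, which by construction shrinks differences of genes of low level. No named gene that was called in the main fit or in the alternative reversed direction. Of the list counts, those that moved by more than 1.5 times were counts in one direction of 6 members or fewer. With 1 library left out these were the lower B-cell identity markers (1 in place of 2, without 4 h or 12 h replicate 3), G1 genes (1 in place of 2, without 4 h replicate 1 or 3 or 12 h replicate 2 or 3), mitochondrial import genes (1 in place of 2, without 4 h replicate 2 or 12 h replicate 1 or 2), macrophage markers (2 in place of 4, without 4 h replicate 2) and erythroid markers (the 1 call was lost without 4 h replicate 1 or 12 h replicate 2). They were also the higher cholesterol genes (1 in place of 2, without 4 h replicate 2), amino acid transporters (2 in place of 1, without 4 h replicate 1), Egr3 as the 1 higher immediate-early gene (lost without 4 h replicate 1) and the 1 higher marginal zone marker (lost without 4 h replicate 1 or 2 or 12 h replicate 2 or 3). Whether the replicate numbers pair the libraries could not be tested on these values: a difference between the numbers had been taken out before deposit, which by itself pushes same-numbered deviations apart (they correlated at -0.08, -0.11 and -0.02 across genes). With a replicate block 6998 genes were called (3924 higher, 3074 lower), 95.2% of the main calls, all in the same direction. Of 440 named genes, 8 to 17 lost their call with 1 library left out (most without 4 h replicate 2, 17, and 12 h replicate 3, 16), 12 each with no filter and with the pseudocount, 7 each with the block and with no variance trend, and 1 in the fit of the 6 libraries alone, where 19 gained one and 12 list counts moved. Under both other filters and median centring none lost its call among the genes still tested.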
